A study of Homo sapiens with 6 samples.

Results

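GAS5, SNHG1, SNHG3, SNHG5, SNHG6, SNHG7, SNHG8, SNHG12, SNHG15 and ZFAS1 are human noncoding genes whose introns carry small nucleolar RNAs (snoRNAs), and their contacts with the splicing factor SF3B4 and with the quadruplex-directed ligase G4PID were mapped in the human embryonic kidney line HEK293T. These 10 genes, of 58780 in the GENCODE release 29 annotation, were chosen by name with the SF3B4 peaks already known, so they were in effect selected on whether that list had peaks in them. A peak was given to a gene where its midpoint lay in it on the same strand. They held 31 of the 3660 SF3B4 peaks and 0 of the 270 G4PID peaks. The annotation bore out the label: each of the 10 has a noncoding gene type, and each has at least 1 snoRNA whole within an intron.

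The study used eCLIP, in which a protein is immunoprecipitated with the RNA fragments it touches and the recovered fragments are set against an input library. The series has 6 libraries: 2 for G4PID, a designed ligase that adds biotin near G-quadruplexes and was recovered through an HA tag, 2 for SF3B4 recovered with an antibody to the protein, and 2 of input. Per the labels' protocols, the plasmids used were pIRES2-G4PID-EGFP and pIRES2-miniTurboID-EGFP, the cells were cultured for 24 h after transfection and biotin was given at 500 µM for 30 min. All libraries share this text, so it is not known if cells for SF3B4 and input had been transfected or labelled. A library of the untargeted miniTurboID ligase was not analysed here. For each antibody there is 1 deposited list of peaks in which single libraries have no values, so there was no replicate spread to set a value against, and the depth is unknown. A gene without a peak is not shown to be unbound, and peak positions cannot test the identity of the cells.

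SF3B4 is a subunit of SF3b within the U2 small nuclear ribonucleoprotein, which binds pre-mRNA around the branch site, upstream of the 3' splice site where an intron ends. Most human snoRNAs are released from introns after splicing: box C/D snoRNAs guide ribose methylation of ribosomal RNA, and box H/ACA snoRNAs guide pseudouridylation. Box C/D snoRNAs tend to sit at a preferred distance upstream of the branch site of their host intron, and the spliced exons of several of these hosts, GAS5 among them, are degraded by nonsense-mediated decay.

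The following intron ends are shown because the results turn on them. Each runs 5′ to 3′ on the transcribed strand from the first base of the snoRNA to 20 nt past the 3' splice site, with the bases under an SF3B4 peak in capitals. The first 3 are from GAS5 and carry peaks that cross the splice site, and the fourth, SNORD76, is a GAS5 intron end with no peak. The next 3 come from SNHG1 and ZFAS1, and the last, from SNHG8, has no peak. Their positions in hg38 are chr1:173865263-173865430 (SNORD79), chr1:173864685-173864903 (SNORD80), chr1:173864285-173864445 (SNORD47), chr1:173866548-173866715 (SNORD76), chr11:62855447-62855631 (SNORD25), chr11:62853571-62853732 (SNORD30), chr20:49280683-49280922 (SNORD12) and chr4:118279190-118279408 (SNORA24), the GAS5 and SNHG1 ones on the minus strand and the other 2 on the plus strand. The bases are those of GENCODE release 29 transcripts (GRCh38) that retain these introns.
GAS5, SNORD79 intron: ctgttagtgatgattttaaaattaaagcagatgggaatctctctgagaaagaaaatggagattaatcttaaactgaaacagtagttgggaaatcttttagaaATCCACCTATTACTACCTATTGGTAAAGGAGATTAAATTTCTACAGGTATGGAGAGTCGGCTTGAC
GAS5, SNORD80 intron: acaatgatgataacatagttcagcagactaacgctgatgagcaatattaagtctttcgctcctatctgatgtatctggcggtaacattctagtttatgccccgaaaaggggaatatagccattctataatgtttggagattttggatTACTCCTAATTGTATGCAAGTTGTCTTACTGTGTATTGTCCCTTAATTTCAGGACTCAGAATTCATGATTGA
GAS5, SNORD47 intron: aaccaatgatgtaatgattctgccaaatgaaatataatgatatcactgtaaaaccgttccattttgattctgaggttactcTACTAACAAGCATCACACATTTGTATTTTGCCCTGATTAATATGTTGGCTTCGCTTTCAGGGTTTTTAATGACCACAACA
GAS5, SNORD76 intron: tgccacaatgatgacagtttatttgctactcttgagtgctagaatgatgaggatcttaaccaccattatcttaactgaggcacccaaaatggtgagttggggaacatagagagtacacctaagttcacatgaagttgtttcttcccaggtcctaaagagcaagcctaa
SNHG1, SNORD25 intron: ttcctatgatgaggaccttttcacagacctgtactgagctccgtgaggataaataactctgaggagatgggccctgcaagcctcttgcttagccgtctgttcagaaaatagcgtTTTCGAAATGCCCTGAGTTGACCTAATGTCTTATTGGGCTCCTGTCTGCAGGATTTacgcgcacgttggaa
SNHG1, SNORD30 intron: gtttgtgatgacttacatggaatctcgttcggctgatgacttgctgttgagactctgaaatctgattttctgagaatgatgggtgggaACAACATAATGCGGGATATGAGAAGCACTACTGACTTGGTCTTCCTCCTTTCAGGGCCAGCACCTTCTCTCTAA
ZFAS1, SNORD12 intron: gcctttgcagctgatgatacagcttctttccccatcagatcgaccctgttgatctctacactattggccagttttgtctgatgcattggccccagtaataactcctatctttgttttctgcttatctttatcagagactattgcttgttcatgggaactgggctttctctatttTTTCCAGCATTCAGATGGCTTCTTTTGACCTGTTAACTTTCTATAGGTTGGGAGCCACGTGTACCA
SNHG8, SNORA24 intron: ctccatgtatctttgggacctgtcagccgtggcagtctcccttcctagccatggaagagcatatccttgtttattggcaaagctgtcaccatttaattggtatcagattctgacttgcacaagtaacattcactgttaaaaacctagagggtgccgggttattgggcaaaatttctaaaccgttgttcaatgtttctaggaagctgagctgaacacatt

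In the 6 intron ends with a peak the snoRNA comes first, an unpeaked spacer follows, and the capitals begin in the last stretch before the AG of the splice site. The SNORD79, SNORD80, SNORD47, SNORD25, SNORD30 and SNORD12 peaks run on into the exon.

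SF3B4 peaks were listed in 8 of the 10 hosts, and SNHG7 and SNHG8 had none. By the same rule 3.49% of all annotated genes, and 0.76% of the 12635 long noncoding genes with an intron, held an SF3B4 peak. Since the 10 were named with these peaks known, the share is a description and was not tested. GAS5 held 9 peaks and SNHG1 8, so these 2 genes carried most of the 31. SNHG5 had 4 peaks, SNHG15 and ZFAS1 3 each, SNHG12 2, and SNHG3 and SNHG6 1 each. Each peak carries the authors' log2 fold over input and −log10 p, both given here as deposited and used only within the list. The log2 fold of the host peaks was between 3.11 and 5.87 with a median of 3.96, against a median of 3.93 over the other 3629 SF3B4 peaks. By p the host peaks stood higher: their median −log10 p was 27.9, against 8.92 for the other peaks, and 21 of the 31 were among the 366 peaks of the list (1 in 10) with the highest −log10 p. These 21 included 8 of the 9 GAS5 peaks and 7 of the 8 SNHG1 peaks, so most came from these 2 genes. By log2 fold, 2 of the 31 were among the highest 366.

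**Figure D1:**
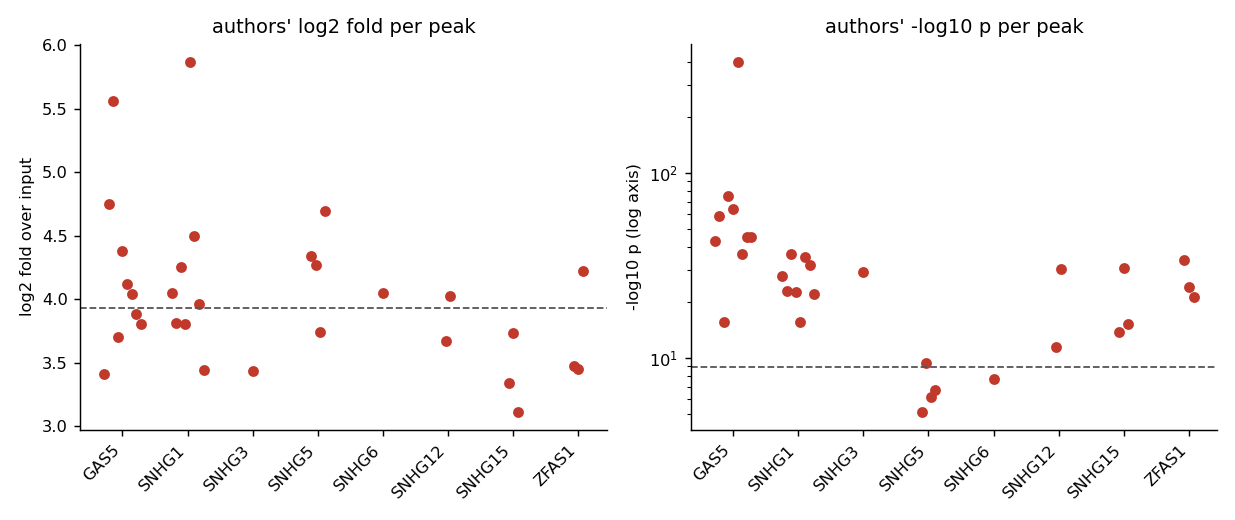
The authors' log2 fold over input (left) and −log10 p (right, log axis) of each of the 31 SF3B4 peaks in the 8 hosts that have one; each point is a peak, in 5′ to 3′ order within its gene, and the dashed line is the median of the other 3629 SF3B4 peaks. The folds lie on both sides of their line, whereas 27 of 31 −log10 p values lie at or above the list's median, and the GAS5 peak at 400 stands highest.

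GAS5, growth arrest specific 5 (ENSG00000234741.7, chr1:173863900-173868882, minus strand, 4983 nt), carries 11 snoRNAs, 10 of the C/D class and SNORA103 of the H/ACA class. Its basic transcripts use 13 different 3' splice sites, and the order of peaks along them was uneven: the first 4 sites, which include those after SNORD74, SNORD75 and SNORD76, had no SF3B4 peak, and sites 5 to 13 each had 1 within 100 nt. The peak at the end of the SNORD80 intron, chr1:173864680-173864756, had a −log10 p of 400, the highest value in the SF3B4 list and one that 15 of its 3660 peaks share, with a log2 fold of 4.12. Its fold ranked 1534 of 3660. The peak of the SNORD79 intron, chr1:173865251-173865328, had a log2 fold of 3.70 and a −log10 p of 75, and reached from 46 nt upstream of the splice site to 31 nt beyond the first exon base. The peak of the SNORD47 intron, chr1:173864257-173864364, had a log2 fold of 3.88 and a −log10 p of 45.2; it began 4 nt after the snoRNA ended. That is the shortest spacer in GAS5 among the peaks that lie in an intron with their snoRNA.

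The other GAS5 peaks varied more in place. The widest, chr1:173865828-173865947, was 120 nt long, with a log2 fold of 4.75 and a −log10 p of 58.7. It spanned the splice site at 173865894. The intron ending there also holds SNORD44, but another 3' splice site, 173865952, lies between SNORD44 and that site. The midpoint of this peak was within 100 nt of both sites. The narrowest, at chr1:173865558-173865578 in the SNORD78 intron, was 21 nt long and had the highest fold in GAS5, 5.56, with a −log10 p of 15.7. The peaks at chr1:173866181-173866206, after SNORD77, and chr1:173864053-173864075, after SNORD81, each began at the first base of the exon, and their log2 folds were 3.41 and 3.80. These 2 lie downstream of the usual place of SF3B4 peaks, which the next paragraphs describe. The peak at chr1:173865158-173865194 was the only host peak farther than 100 nt from a 3' splice site: it lay within the SNORD80 intron, 53 nt past its 5' splice site, with a log2 fold of 4.38 and a −log10 p of 64. The last, chr1:173864534-173864555, sat 38 nt upstream of a splice site of an intron with no snoRNA and had a log2 fold of 4.04.

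SNHG1, the host of SNORD22 and of 7 other C/D snoRNAs (ENSG00000255717.6, chr11:62851988-62855914, minus strand), has 15 basic 3' splice sites and 9 snoRNAs, counting LOC124900306, whose class the annotation does not name. Its peaks were at the ends of the introns of SNORD25, SNORD26, SNORD27, SNORD28, LOC124900306, SNORD29 and SNORD30, in that order, and a further one, chr11:62852660-62852681, lay at a pair of neighbouring sites without a snoRNA. The introns of SNORD31 and SNORD22, the next downstream, had no peak at their ends. Log2 folds were close for 7 of the 8 peaks, from 3.44 to 4.50, and the peak of LOC124900306, chr11:62854086-62854106, reached 5.87. That peak was 21 nt long and its −log10 p, 15.7, was the lowest in the gene. The peak after SNORD27, chr11:62854898-62854961, had the highest −log10 p of SNHG1, 36.3, and its midpoint was 9 nt inside the exon. SNORD22 RNA takes part in the processing of 18S ribosomal RNA rather than guiding a known methylation, and its intron end was among those without a peak.

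**Figure D2:**
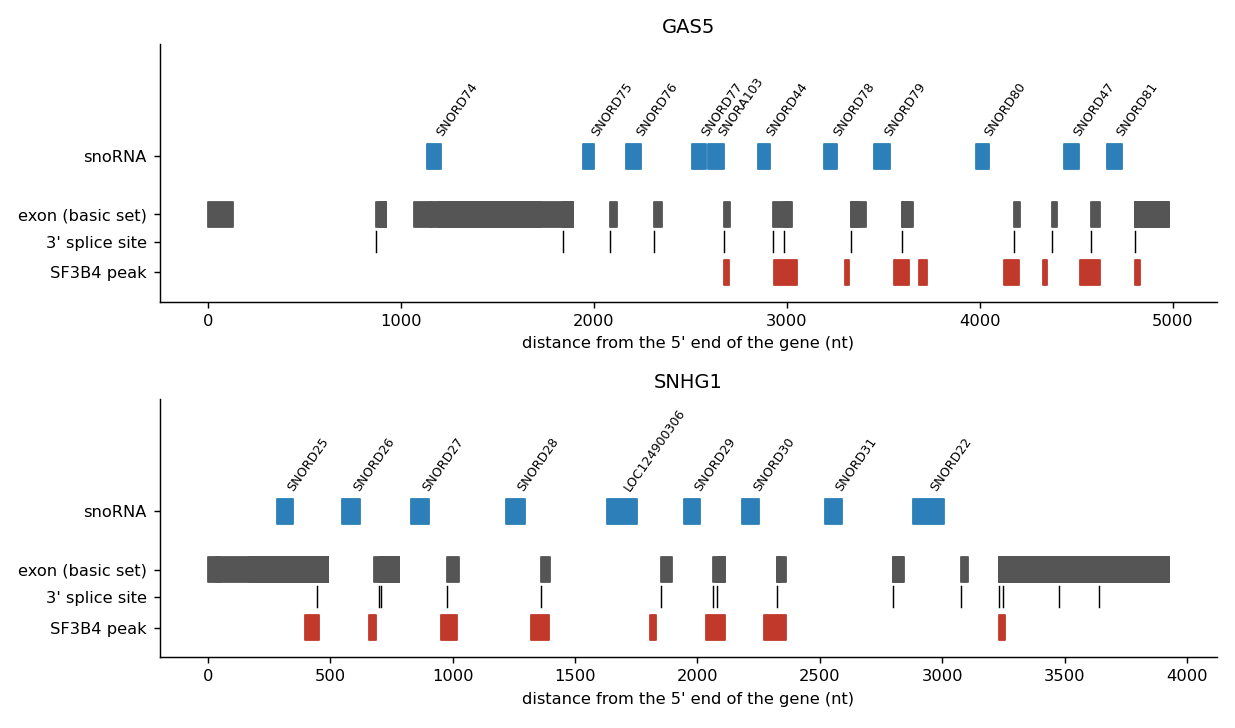
Maps of GAS5 and SNHG1, drawn to scale from the 5' end of each gene on the x axis (nt): snoRNAs (blue), exons of the basic transcript set (grey), 3' splice sites (black ticks) and SF3B4 peaks (red). In GAS5 the peaks begin at the fifth splice site and follow each snoRNA from SNORD77 on; in SNHG1 they follow the first 7 snoRNAs, the ends of the SNORD31 and SNORD22 introns have none, and the last peak lies at later sites without a snoRNA.

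SNHG5, the host of SNORD50A and SNORD50B (ENSG00000203875.11, chr6:85660950-85678748, minus strand), had a peak at the end of both snoRNA introns and 2 more upstream of them. Their log2 folds, from 3.74 to 4.69, were like those of GAS5 and SNHG1. Their −log10 p values, from 5.1 to 9.35, were, with the single SNHG6 peak at 7.72, the lowest in the 10 hosts. The 4 peaks lay within the first 7 of 11 splice sites, and the 4 sites after SNORD50A had none. ZFAS1 (ENSG00000177410.12, chr20:49278178-49295738, plus strand), transcribed antisense to ZNFX1, had a peak at the end of each of its 3 snoRNA introns, those of SNORD12C, SNORD12B and SNORD12, and at none of its 3 other sites. Their log2 folds in that order were 3.47, 3.45 and 4.22. All 3 crossed the splice site and were 94 to 96 nt long.

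SNHG12 (ENSG00000197989.14, chr1:28578538-28583132, minus strand) holds 3 H/ACA snoRNAs and 1 C/D snoRNA, and its 2 peaks followed SNORA44 and SNORA61. The peak after SNORA61, chr1:28579558-28579655, had a log2 fold of 4.02 and a −log10 p of 30.1. The ends of the SNORA16A and SNORD99 introns had no peak. In SNHG15 (ENSG00000232956.8, chr7:44983023-44986961, minus strand), where SNORA9 is the only snoRNA, 1 peak followed the SNORA9 intron and 2 lay at sites without a snoRNA. These 3 had log2 folds between 3.11 and 3.73, and 3.11 was the lowest of the 31. SNHG6 (ENSG00000245910.8, chr8:66921684-66926398, minus strand) had 1 peak after SNORD87, with a log2 fold of 4.05. The 1 peak in SNHG3 (ENSG00000242125.3, chr1:28505980-28510892, plus strand), chr1:28508779-28508840, followed SNORA73B, an H/ACA snoRNA of ribosomal RNA processing, with a log2 fold of 3.43. It also lies in RCC1, a protein-coding gene on the same strand, and a peak position does not tell which transcript was bound.

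SNHG7 (ENSG00000233016.6, chr9:136721366-136728184, minus strand), host of SNORA17A and SNORA17B, and SNHG8 (ENSG00000269893.6, chr4:118278709-118279823, plus strand), host of SNORA24, had no peak at any of the 6 splice sites of SNHG7 or the 4 of SNHG8. All 3 of their snoRNAs are of the H/ACA class. The distance from SNORA24 to its splice site, 68 nt, was within the range of the introns that had a peak. No peak of either list lay on the opposite strand of any of the 10 hosts. The share of all genes with a peak on the opposite strand is not given here, so this count is not shown to be particular to the hosts.

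Where the host peaks lay within the intron was not used to choose the hosts, and it was compared with the other SF3B4 peaks in genes with an annotated splice site. The midpoints of 15 of 31 host peaks (48.4%, 95% Wilson interval 32 to 65.2%) lay in the stretch that runs from 60 to 10 nt before the closest 3' splice site, against 2494 of 3600 other peaks (69.3%, 67.8 to 70.8%). The odds ratio was 0.416 (two-sided Fisher's exact test, p = 0.0178, Benjamini-Hochberg adjusted p = 0.0178 over the 2 tests computed). The host midpoints within 100 nt of a site had a median 11.5 nt upstream of it, against 30 nt upstream for the other peaks. Most alternatives lost this call. The odds ratio was 0.532 without GAS5 (12 of 22 host peaks, 54.5%, exact p = 0.164), 0.58 among peaks with a log2 fold of 4 or more (exact p = 0.384) and 0.75 with a window of 0 to 100 nt (exact p = 0.459). With 1 peak per gene the direction turned, with 6 of 8 host peaks (75%) and 1282 of 1839 other peaks (69.7%) in the stretch, an odds ratio of 1.3 (exact p = 1). It turned too where any base of the peak counted and not its midpoint, with 28 of 31 host peaks (90.3%) and 3156 of 3600 other peaks (87.7%), an odds ratio of 1.31 (exact p = 1, an alternative chosen after the data were seen). Peaks of 1 gene share its RNA, so p describes the peaks of this list and not replicate samples.

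Of the 31 host peaks, 19 (61.3%) crossed a 3' splice site, 10 (32.3%) were inside an intron and 2 (6.45%) began at the first exon base without crossing a site. A further peak that began at a first exon base, chr11:62852660-62852681 in SNHG1, is among the 19, as it crossed the neighbouring site. Among the other peaks, 1662 of 3600 (46.2%) crossed a site and 1857 (51.6%) were inside an intron. The 19 crossing peaks of the hosts covered 15 to 68 intron bases, with a median of 51, and 5 to 67 exon bases, with a median of 32. In 14 of the 19, the 5' edge was 40 to 60 nt upstream of the splice site. The 9 host peaks that stayed in the intron within 100 nt of its end were shorter, with a median of 25 nt against 81 nt for the crossing ones, and their 5' edges were 31 to 58 nt upstream. The 5' edges of most peaks of both kinds therefore fell in about the same stretch, though some crossing peaks began closer to the site, down to 15 nt upstream. How far the kinds ran downstream differs by definition, since they were split by whether the peak crosses the site.

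**Figure D3:**
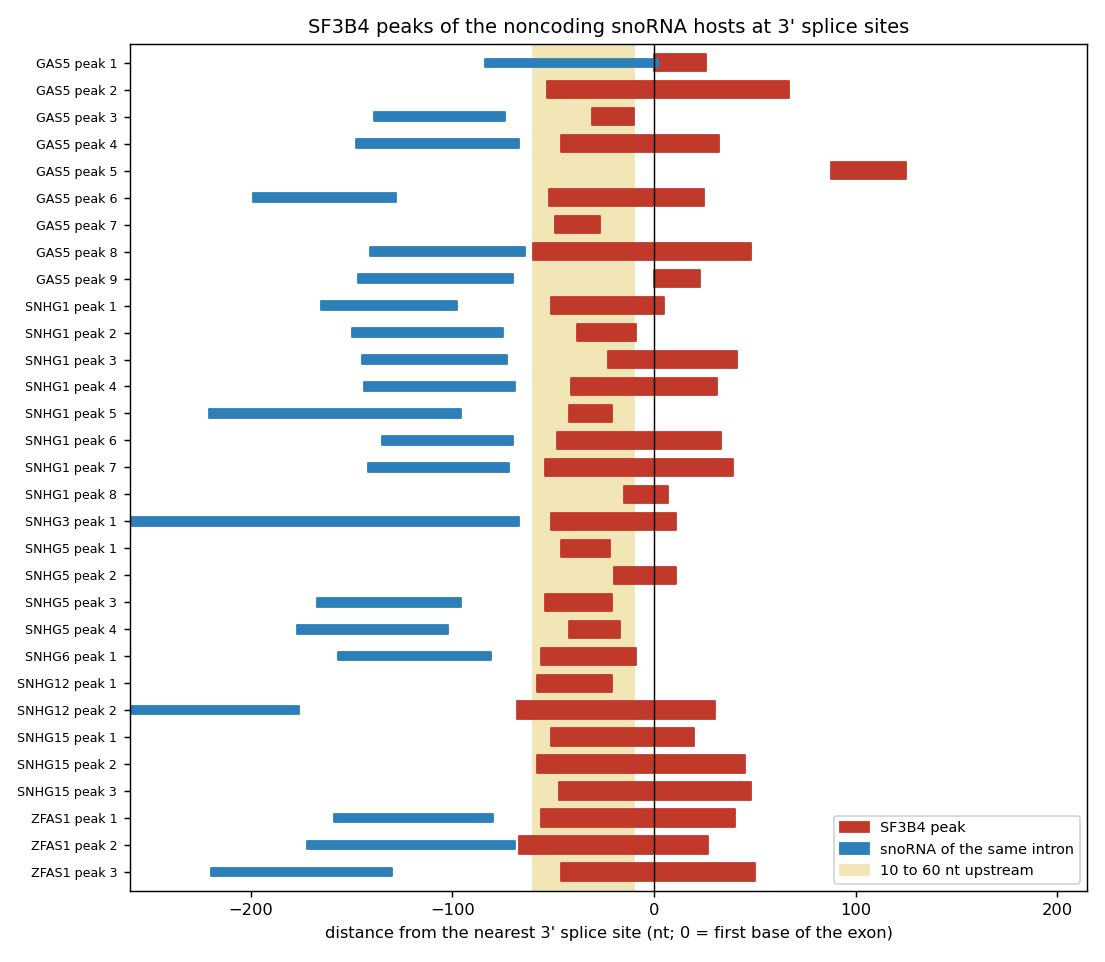
The 31 host SF3B4 peaks (red) in order of gene and position, aligned on the nearest 3' splice site; the x axis is the distance in nt, with 0 at the first exon base and negative values in the intron. Blue bars are the snoRNA of the same intron where it lies within the plotted range, and the shaded band is 10 to 60 nt upstream. Of the 31, 28 touch the band, and the snoRNAs end before the peaks begin except in GAS5 peak 1.

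Of the 31 host peaks, 1 overlapped an annotated snoRNA, by 2 nt: GAS5 peak chr1:173866181-173866206 and the end of SNORA103, whose RefSeq position reaches into the exon. The share of all SF3B4 peaks that overlap a snoRNA is not given here, so this count is not shown to be particular to the hosts. Each peak was set against the closest snoRNA upstream of it in the same intron. For C/D snoRNAs, 2 to 84 nt lay between the snoRNA's 3' end and the peak's 5' edge, with a median of 37 nt over 17 peaks. The shortest gap was at the SNORD12B peak of ZFAS1, chr20:49280418-49280511, 2 nt after its snoRNA. The GAS5 peak after SNORD77 is not among the 17, since SNORA103 lies between them. SNORD77 ended 94 nt before the splice site where that peak begins. For H/ACA snoRNAs the gap varied more, from the overlap of 2 nt at SNORA103 and 16 nt at SNORA73B to 900 nt at SNORA9 of SNHG15, with a median of 108 nt over 5 peaks. The introns themselves differed likewise: the 25 C/D snoRNAs ended 15 to 630 nt before their splice site with a median of 74 nt, and the 9 H/ACA snoRNAs 67 to 993 nt before it with a median of 330 nt. The 19 C/D snoRNAs with a peak at the next splice site ended a median of 74 nt before it, and the 6 without a peak 76 nt.

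Splice sites that close a snoRNA intron were then compared with the other splice sites of the same 10 hosts. A snoRNA site could have no other 3' splice site between it and its snoRNA. By this rule the sites 173865894 of GAS5 and 62855208 and 62853833 of SNHG1, all with a peak, counted as other sites. Introns ending there hold SNORD44, SNORD26 and SNORD29, but an alternative splice site lies in between. A peak midpoint lay within 100 nt of 24 of 35 snoRNA sites (68.6%, 95% Wilson interval 52 to 81.4%) and of 13 of 35 other sites (37.1%, 23.2 to 53.7%), an odds ratio of 3.69. Over all 248121 sites of the basic transcript set the share was 1.35%. The hosts were chosen with these same peaks known, so the shares are a description and no p is given. The difference was of like size without GAS5, with 17 of 25 snoRNA sites and 11 of 32 other sites (odds ratio 4.06). It was smaller among peaks with a log2 fold of 4 or more, with 11 of 35 and 7 of 35 sites (odds ratio 1.83), and with the snoRNAs of GENCODE alone, with 15 of 22 and 22 of 48 sites (odds ratio 2.53, an alternative chosen after the data were seen). Sites of 1 gene share RNA, and alternative sites a few bases apart can share a peak; with each peak given to its nearest site, 22 of 35 snoRNA sites and 8 of 35 other sites had one.

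By class, 19 of 25 C/D snoRNAs (76%, 95% Wilson interval 56.6 to 88.5%) and 4 of 9 H/ACA snoRNAs (44.4%, 18.9 to 73.3%) had a peak at the next splice site. The intervals overlap and the difference was not tested. Among the 19, SNORD44 and SNORD29 counted through peaks within 100 nt of their site that lay nearer to another site, 173865894 of GAS5 and 62853833 of SNHG1. The 6 C/D exceptions were SNORD74, SNORD75 and SNORD76 of GAS5, SNORD31 and SNORD22 of SNHG1, and SNORD99 of SNHG12. The 5 H/ACA exceptions were SNORA73A of SNHG3, SNORA17A and SNORA17B of SNHG7, SNORA24 of SNHG8 and SNORA16A of SNHG12. In GAS5 and SNHG1 the exceptions were neighbours: the first 3 C/D snoRNAs of GAS5 and the last 2 of SNHG1.

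**Figure D4:**
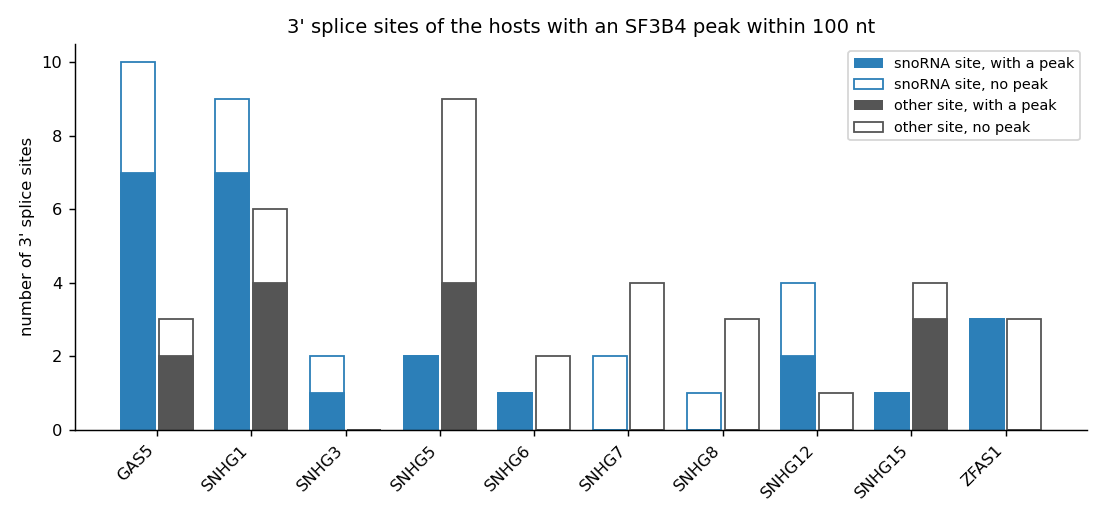
Number of 3' splice sites of each host (y axis) that are snoRNA sites, with no other 3' splice site between them and the snoRNA (blue, left bar), or other sites (grey, right bar); the filled part has an SF3B4 peak midpoint within 100 nt and the open part has none. All snoRNA sites of SNHG5, SNHG6, SNHG15 and ZFAS1 are filled, and none of SNHG7 and SNHG8.

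The other host genes of the annotation were counted the same way with no test. Their shares were lower, but the 10 hosts were chosen with their peaks known and these were taken from the annotation. The contrast with the 10 is therefore only a description. Of 84 other noncoding genes with a snoRNA in an intron, 10 (11.9%) had an SF3B4 peak. The highest log2 folds among these 10 were in AC016876.2 (6.85, overlapping EIF4A1 on the same strand), EPB41L4A-AS1 (5.09), AL671762.1 (4.90, overlapping C6orf48) and SNHG16 (4.90). Within these 10 genes a peak was near 10 of 22 snoRNA sites (45.5%) and 5 of 40 other sites (12.5%). Of 478 protein-coding hosts, 136 (28.5%) had a peak, and within those 136 a peak was near 53 of 222 snoRNA sites (23.9%) and 289 of 2349 other sites (12.3%). In each of the 3 sets of hosts with a peak, the snoRNA sites had the higher share, but the sets are not separate. RCC1 overlaps SNHG3, EIF4A1 overlaps AC016876.2 and C6orf48 overlaps AL671762.1. Genes within the coding set also overlap each other, such as PPAN and PPAN-P2RY11, or SRCAP and AC106886.5. Some peaks and sites were therefore counted more than once, and the 136 coding genes are not all separate loci. The median over genes of the highest log2 fold was 4.13 for the 8 hosts with a peak, 4.23 for the other noncoding hosts, 4.73 for the coding hosts and 4.34 for all genes with a peak.

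The proteins that work with these RNAs were read from 2 lists. An SF3B4 peak was held by 3.49% of all genes and by 28.5% of the 478 protein-coding hosts. Of 19 genes of snoRNP proteins and their assembly factors, 5 (26.3%) had one, a share like that of the protein-coding hosts. They were RUVBL1, a helicase of snoRNP assembly (highest log2 fold 6.65, at a peak over the U2 copy RNU2-37P), DKC1, the pseudouridine synthase of H/ACA particles (5.13), NOP58 (5.13) and NOP56 (4.61), core proteins of C/D particles, and ZNHIT6 (4.05), an assembly factor. NOP56 is itself a snoRNA host, with 5 peaks that reached 3 of its 5 snoRNA sites. None of these 19 genes had a G4PID peak, which is close to the background, since 0.231% of all genes had one. Of factors of nonsense-mediated decay, the helicase UPF1 had SF3B4 peaks with a highest log2 fold of 4.84 and SMG5 with one of 4.64.

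The letters CTNAC, a form of the branch site in which only the third base may vary, were searched in the 60 nt upstream of each readable site. A site was readable where transcripts covered this stretch. Branch sites with other letters were not counted. They were found at 7 of 30 host sites with a peak (23.3%), 3 of 18 host sites without one (16.7%) and 10406 of 36830 readable sites of the basic set (28.3%). The basic set has 248121 sites, so most could not be read. On the opposite strand, where the same letters read GTNAG, they were found at 26.7%, 11.1% and 12% of these sites. The median pyrimidine share of the last 20 nt of the intron was 65% at host sites with a peak, 67.5% at host sites without and 65% over all readable sites. The snoRNA positions were checked by their own letters. Both TGATGA (box C) in the first 20 nt and CTGA (box D) in the last 20 nt were present in 16 of 21 readable host C/D snoRNAs (76.2%), against 187 of 278 annotated SNORD genes (67.3%), and in 0 of 21 on the other strand. ACA within the last 8 nt was present in 7 of 8 readable host H/ACA snoRNAs (87.5%), against 132 of 147 SNORA genes (89.8%), and in 3 of 8 on the other strand (37.5%).

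G4PID had no peak in the 10 hosts, by midpoint or by any base. Its list is short: 0.231% of all genes held 1 of its 270 peaks, so a count of 0 among 10 genes is close to that background. Of the other snoRNA hosts, 6 of 478 protein-coding and 0 of 84 noncoding ones had a G4PID peak. A quadruplex motif, 4 runs of at least 3 G with 1 to 7 nt between them, was found in the sense strand of SNHG7 and of SNHG15, 1 in each, and 3 times on the opposite strand of SNHG7. The other 8 hosts had none in the bases that could be read, which were 34515 of 70366 nt (49.1%), with the introns of SNHG5, SNHG6 and ZFAS1 mostly unread.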

How the data were processed

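Per the submitters' processing notes, reads were handled with cutadapt 3.4 and STAR 2.7.0d, with hg19 and hg38 listed as builds; the sources used here do not give the peak caller, its filters or the way replicates were joined. Both deposited lists are in hg38 and have no header. Of the values the authors deposited for each peak, the first was taken to be a −log10 p and the second a log2 fold over input, since eCLIP peak files usually have this order and the values fit it. How peaks were cut and joined sets their widths and midpoints, and this could not be checked.

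Positions were compared with GENCODE release 29, using the basic transcript set. A 3' splice site had a peak where a peak midpoint lay within 100 nt. It was a snoRNA site where an intron ending there held a snoRNA whole and no other 3' splice site lay between the snoRNA and the site. Of the 36 host snoRNAs, 14 come only from the RefSeq gene table (GRCh38.p14, same primary assembly), including all 11 of GAS5. That table gives no strand and the host's was taken. Sequence was rebuilt from GENCODE transcripts. Fisher's exact test was computed on peaks and on sites, with Benjamini-Hochberg adjustment over the 2. No p is given for sites, since the hosts were chosen with their peaks known. The 95% Wilson intervals cover counting error only. The labels do not say whether libraries of 1 antibody came from separate cultures. Scripts were tested on simulated data. The members, the gene lists, the rule for named genes (all 10 hosts with every peak, and 2 to 4 or more genes of highest fold per list) and the tests were chosen with earlier results of these data known. Some items of these lists and sequences are not reported here, so the decay factors have no count. Alternatives covered the peak thresholds, windows, transcript set, snoRNA source and left-out hosts. Computations used Python 3.11.15, numpy 2.4.6, scipy 1.17.1 and matplotlib 3.10.9.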

Additional observations from a re-analysis of the deposited data

How the results depend on the processing

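Of 7 alternatives to the test of peak position, 2 kept its direction and side of the 0.05 threshold. The share of host midpoints 10 to 60 nt upstream of a splice site, odds ratio 0.416 against the other peaks, was 0.375 with all transcripts and 0.388 without the peak shared by SNHG3 and RCC1. It lost the call with a window of 0 to 100 nt (odds ratio 0.75), with a log2 fold of 4 or more (0.58) and without GAS5 (0.532), and turned round with 1 peak per gene (1.3, 6 of 8 hosts) and with any base of the peak in the stretch (1.31); the cause was not tested. The comparison of snoRNA with other sites, odds ratio 3.69, was between 3.46 and 5.71 under 5 of 7 alternatives. It was lower with a log2 fold of 4 or more (1.83) and with GENCODE snoRNAs only (2.53), which by construction counts the GAS5 sites as other sites, since GENCODE release 29 has 0 snoRNAs in GAS5. The alternatives on any base, SNHG3, the nearest site, the snoRNA source and hosts without peaks were chosen after seeing the data. Host peaks numbered 31, 26 with a −log10 p of 10 or more and 15 with a log2 fold of 4 or more. The count of peaks over a snoRNA was 1, and 0 where at least 10 nt had to overlap. No paired analysis was possible because each antibody has 1 list with no column per replicate, and for the same reason no replicate could be left out. Depth is unknown, so a missing peak sets no limit on binding.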

Other observations

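The 5' edge of 3 of the 31 host peaks, 2 in GAS5 and 1 in SNHG1, fell exactly on the first base of an exon, and that of 0 of the 3629 other SF3B4 peaks did. This count was chosen after the values were seen and was not tested. The 2 host peaks of highest fold, in the SNORD78 intron of GAS5 (5.56) and the LOC124900306 intron of SNHG1 (5.87), were both 21 nt long and had the same −log10 p of 15.7, a value that 300 of the 3660 SF3B4 peaks share.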
